A study of Mus musculus with 8 samples.

Results

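The genes described here are the nuclear effectors of the Hippo pathway and the genes closest to them, 10 in all: the coactivators Yap1 and Wwtr1 (TAZ), the DNA-binding partners Tead1 to Tead4, the kinases Lats1 and Lats2, and the target genes Ctgf and Cyr61. They were chosen by gene name among the non-control probes of an Agilent whole mouse genome array, and 15 of its 41174 probes read them (10 of 22410 genes with a symbol). A pair of probes named Taz was left out, since they lie on chromosome X, where the tafazzin gene of that name lies, whereas Wwtr1 lies on chromosome 3. The samples were 8 whole pancreases from C57BL/6 mice aged 1 week, 4 wildtype (WT) and 4 Glis3KO2, kept with their own mothers. The labels name Glis3KO2 as the genotype but give neither the deleted part of Glis3 nor how the line was made. Glis3 is a zinc finger transcription factor, and the series asked about its part in beta cells, as its title says.

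In the Hippo pathway a kinase cascade ends in Lats1 and Lats2, which phosphorylate the proteins YAP and TAZ and so keep them out of the nucleus. When the cascade is quiet, YAP and TAZ enter the nucleus and bind TEAD proteins on DNA, and genes such as Ctgf and Cyr61 are transcribed. In the pancreas YAP is known from progenitors, acinar and duct cells, and it is lost as cells enter the endocrine lineage. TAZ has been described as a protein partner of Glis3. An array reads the transcripts of these genes and not the phosphorylation or place of the proteins.

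Each sample was read on 1 single-colour array, and levels are log2 signals relative to the 75th percentile of the same array. On that scale a negative level is a probe dimmer than the percentile, and levels of different probes are not compared. Of all probes, 31353 to 35613 per array were well above background by the scanner software, and the unscaled percentile was 460.4 to 694.1. After scaling, 9 of 10 control probes for spiked-in RNA were on average lower in Glis3KO2 (median log2 difference -0.28). The cause of that shift was not tested. The number of arrays, 4 per genotype, limits the precision of every value. Each genotype had a slide and a scan to itself, which means that genotype cannot be told apart from slide. Litters are not given, and p-values therefore cover only the spread among these samples. Glis3 itself, the targeted gene, was read by 1 dim probe, which passed the scanner's background limit on 3 WT and 0 Glis3KO2 arrays, and whether it lies in the deleted part is not given. The 8 acinar markers were well above background on every array, and of the 8 beta cell markers 5 fell. Glis3KO2 replicates 3 and 4 stood apart, with first principal component scores of 39.8 and 59.0 beside -26.0 to 0.46 for the rest. Xist, the RNA of X inactivation in females, was high on WT replicate 4 and Glis3KO2 replicates 1, 3 and 4 (log2 level 4.72 to 5.10) and low on the others (-6.97 to -5.87). In whole tissue, fewer cells of a type and less RNA per cell cannot be told apart.

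The transcripts of 9 of the 10 Hippo effector genes were present in the pancreas of both genotypes, and none of the 9 differed between them past the threshold. Yap1 differed by 0.02 on the log2 scale, Wwtr1, Tead4, Lats1 and Lats2 were on average lower in Glis3KO2, and Tead2, Tead3, Ctgf and Cyr61 were on average higher. The mean differences of these 9 genes ran from -0.36 to 0.29 on the log2 scale, and in every gene the arrays of the genotypes overlapped. The remaining gene, Tead1, was not clearly above background on any of the arrays. Of the 9 genes tested by their brightest probe, 0 passed an adjusted p of 0.05 (limma, Benjamini-Hochberg over all 33239 tested probes), against 0.256% of all tested probes (0.0812% higher and 0.174% lower in Glis3KO2). At an unadjusted p of 0.05 the count was also 0, against 8.97% of all tested probes. This count depended on single arrays, on scaling and on other processing. Without Glis3KO2 replicate 2 it was 3 of 9 (Wwtr1, Tead2 and Tead4), against 11.0% of all tested probes, and without scaling it was 2 of 9 (Tead2 and Tead3), against 9.74%. With normexp background the count was 1 of 9 (Tead2), against 7.71%, and with a filter on all 8 arrays 1 of 9 (Tead4), against 9.19%. With a trend and robust fit it was 1 of 9 (Tead2), against 8.97%. By the mean of each gene's probes it was also 1 of 9. No adjusted p passed in any of these settings. Both genotypes' arrays failed to overlap in 0 of the 14 tested member probes, against 5.2% of all tested probes (1.86% higher and 3.35% lower in Glis3KO2). The median difference of the 9 genes was 0.02, and that of all tested probes was -0.009.

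**Figure D1:**
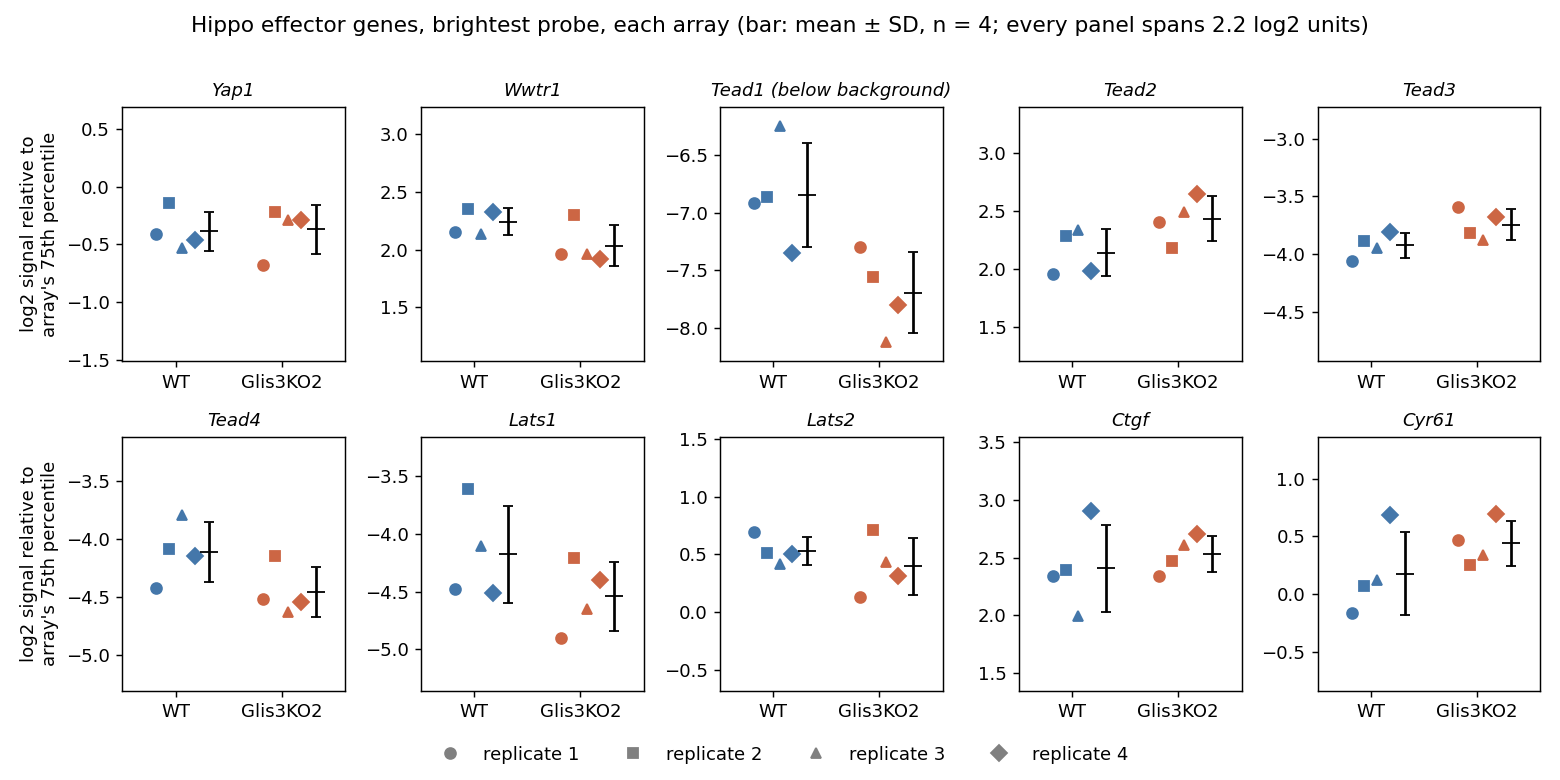
Log2 signal of the brightest probe of each of the 10 genes relative to the array's 75th percentile (vertical axis) for WT and Glis3KO2 arrays (horizontal axis). Points are single arrays, the marker shape is the replicate number, and bars are the mean ± SD of 4 arrays. The genotypes overlap in every panel, and all panels span the same range so that spreads can be compared.

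Of the probes behind the values that follow, 4 are printed to show what was read: those of Wwtr1 and Tead3, whose letters are spread over more genome than their length, and 1 each of Tead2 and Lats1. Each has at least 1 reading frame without a stop codon. All were taken from the array files, 5′ to 3′, in lower case throughout.

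Wwtr1, probe A_52_P571444: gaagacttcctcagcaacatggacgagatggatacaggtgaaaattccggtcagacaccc
Tead2, probe A_51_P227739: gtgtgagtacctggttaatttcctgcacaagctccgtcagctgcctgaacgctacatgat
Tead3, probe A_52_P534894: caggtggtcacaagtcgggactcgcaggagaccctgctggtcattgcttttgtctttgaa
Lats1, probe A_52_P642801: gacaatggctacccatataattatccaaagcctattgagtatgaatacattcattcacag

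The Wwtr1 probe printed first has 60 bases that span 3468 bases of the genome, chr3:57586143-57589610, and the Tead3 probe spans 177 bases, chr17:26519264-26519440 (positions from the array files, build mm7). The Tead2 probe lies at chr7:41407970-41408029 and the Lats1 probe at chr10:7413121-7413180.

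Yap1 encodes the coactivator YAP and was read by 1 probe, at chr9:7956436-7956495. Its log2 level was -0.41, -0.14, -0.53 and -0.46 in WT (replicates 1 to 4) and -0.68, -0.22, -0.29 and -0.29 in Glis3KO2 (same order). The Glis3KO2 arrays held both the lowest value, on replicate 1, and 3 of the 4 highest. The means were -0.39 ± 0.17 (WT) and -0.37 ± 0.21 (Glis3KO2; SD, n = 4), a difference of 0.02 (SE 0.14, limma adjusted p = 0.986). The 95% interval of the difference ran from -0.29 to 0.33, so a Yap1 level between 0.816 and 1.26 times that of WT is compatible with these arrays. The sign turned when WT replicate 3 or 4, or Glis3KO2 replicate 2, 3 or 4, was left out.

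Wwtr1 encodes TAZ, the paralog of YAP, and was read by a pair of probes. The brighter, A_51_P502608, lies at chr3:57585684-57585743. It stood at 2.15, 2.35, 2.14 and 2.33 in WT (replicates 1 to 4) and at 1.96, 2.30, 1.96 and 1.92 in Glis3KO2 (same order). Of the Glis3KO2 arrays 3 lay below every WT array, while replicate 2 lay within the WT range. The means were 2.24 ± 0.11 (WT) and 2.03 ± 0.18 (Glis3KO2; SD, n = 4), a difference of -0.21 (SE 0.12, 95% interval -0.48 to 0.06, limma adjusted p = 0.665). The probe printed above read 0.76, 0.95, 0.55 and 1.00 in WT and 0.76, 0.97, 0.60 and 0.56 in Glis3KO2. Its difference was -0.09 (SE 0.14, limma adjusted p = 0.896), and WT replicate 3 held its lowest value. Without Glis3KO2 replicate 2 the brighter probe's difference was -0.30 (adjusted p = 0.382). Without Glis3KO2 replicates 3 and 4 it was -0.11, and without scaling between arrays -0.03. The printed probe's difference turned sign there, to 0.05 without Glis3KO2 replicates 3 and 4 and to 0.08 without scaling.

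Tead2 encodes a TEAD protein that is known for its part in the embryo, and it was the gene of the family with the largest positive difference. Its brighter probe, A_52_P39546 at chr7:41409172-41409231, read 1.95, 2.29, 2.34 and 1.98 in WT (replicates 1 to 4) and 2.41, 2.18, 2.49 and 2.65 in Glis3KO2 (same order). Its 3 highest values were on Glis3KO2 arrays, and Glis3KO2 replicate 2 lay below WT replicates 2 and 3. The means were 2.14 ± 0.20 and 2.43 ± 0.20 (SD, n = 4 each), a difference of 0.29 (SE 0.14, 95% interval -0.03 to 0.61, limma adjusted p = 0.593). The probe printed above read 0.80, 1.13, 1.08 and 0.96 in WT and 1.12, 1.20, 1.37 and 1.21 in Glis3KO2. There the overlap was a single pair of arrays, WT replicate 2 and Glis3KO2 replicate 1, and the difference was 0.23 (SE 0.11, 95% interval -0.02 to 0.48, limma adjusted p = 0.582). Glis3KO2 replicates 3 and 4 were the highest arrays by both probes, and they also stood apart on the first principal component. Without both, the difference was 0.16 by each probe (adjusted p = 0.919 for the brighter probe and 0.873 for the printed one). Without scaling between arrays the brighter probe's difference was 0.47.

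The other TEAD genes were dim. Tead3, whose protein is known from placenta and other epithelia, read -4.06, -3.89, -3.95 and -3.80 in WT (replicates 1 to 4) and -3.59, -3.82, -3.88 and -3.68 in Glis3KO2 (same order). The pair of highest values was in Glis3KO2 and the lowest 3 were in WT, with a difference of 0.18 (SE 0.11, 95% interval -0.06 to 0.42, limma adjusted p = 0.682). With normexp background correction the Tead3 difference was -0.03, so its sign depends on how background was removed.

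Tead4, a TEAD gene known for its part in the first lineage of the embryo, was read by a probe at chr6:128250598-128250657. Its level was -4.42, -4.08, -3.79 and -4.14 in WT (replicates 1 to 4) and -4.51, -4.15, -4.63 and -4.55 in Glis3KO2 (same order). Of the Glis3KO2 arrays 3 lay below every WT array, and replicate 2 lay level with WT replicate 4. The difference was -0.35 (SE 0.16, 95% interval -0.71 to 0.01, limma adjusted p = 0.570), the lowest unadjusted p of the 9 genes (0.0556). Tead4 thus had a mean difference of the opposite sign to Tead2 and Tead3, and whether these genes differ from each other in their response was not tested. The Tead4 difference was -0.19 with normexp background, -0.18 without scaling and -0.22 without Glis3KO2 replicates 3 and 4. It was larger, -0.46, without WT replicate 1 and also without Glis3KO2 replicate 2.

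Tead1 was read by 1 probe, at chr7:108815507-108815566, which stayed near background on all 8 arrays and so did not enter the test. Its log2 level was -7.35 to -6.25 on WT arrays and -8.12 to -7.30 on Glis3KO2 arrays, and no fold is given between signals at background. This probe therefore does not measure Tead1, and no other probe was named for it.

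Lats1 and Lats2, the kinases that phosphorylate YAP and TAZ, had small negative differences. The Lats1 probe printed above read -4.48, -3.62, -4.11 and -4.51 in WT (replicates 1 to 4) and -4.90, -4.21, -4.65 and -4.40 in Glis3KO2 (same order). It varied widely within WT, where replicate 2 was high, and the difference was -0.36 (SE 0.23, 95% interval -0.87 to 0.15, limma adjusted p = 0.691). The Lats1 difference was smaller without WT replicate 2 (-0.175), with normexp background (-0.17) and without scaling (-0.19). It was larger without WT replicate 1 (-0.46), WT replicate 4 (-0.47) or Glis3KO2 replicate 2 (-0.47).

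Lats2 was read by 4 probes. The brightest, A_52_P315345 at chr14:52557891-52557950, read 0.70, 0.51, 0.42 and 0.50 in WT (replicates 1 to 4) and 0.13, 0.71, 0.43 and 0.31 in Glis3KO2 (same order). The Glis3KO2 arrays held both the lowest and the highest value, and the difference was -0.13 (SE 0.14, 95% interval -0.45 to 0.18, limma adjusted p = 0.828). Probe A_51_P331525 shares 32 bases of genome with it and had a difference of -0.15 (SE 0.15), so those readings are not independent. The other probes, A_52_P425064 at chr14:52590323-52590382 and A_51_P133349 at chr14:52559057-52559116, had differences of -0.01 (SE 0.17) and 0.004 (SE 0.15). None of the 4 passed the threshold (limma adjusted p of 0.824 to 0.997), and without scaling the brightest probe's difference was 0.04. Single arrays moved it to -0.05 (without Glis3KO2 replicate 1), -0.08 (without WT replicate 1) and -0.24 (without Glis3KO2 replicate 2).

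**Figure D2:**
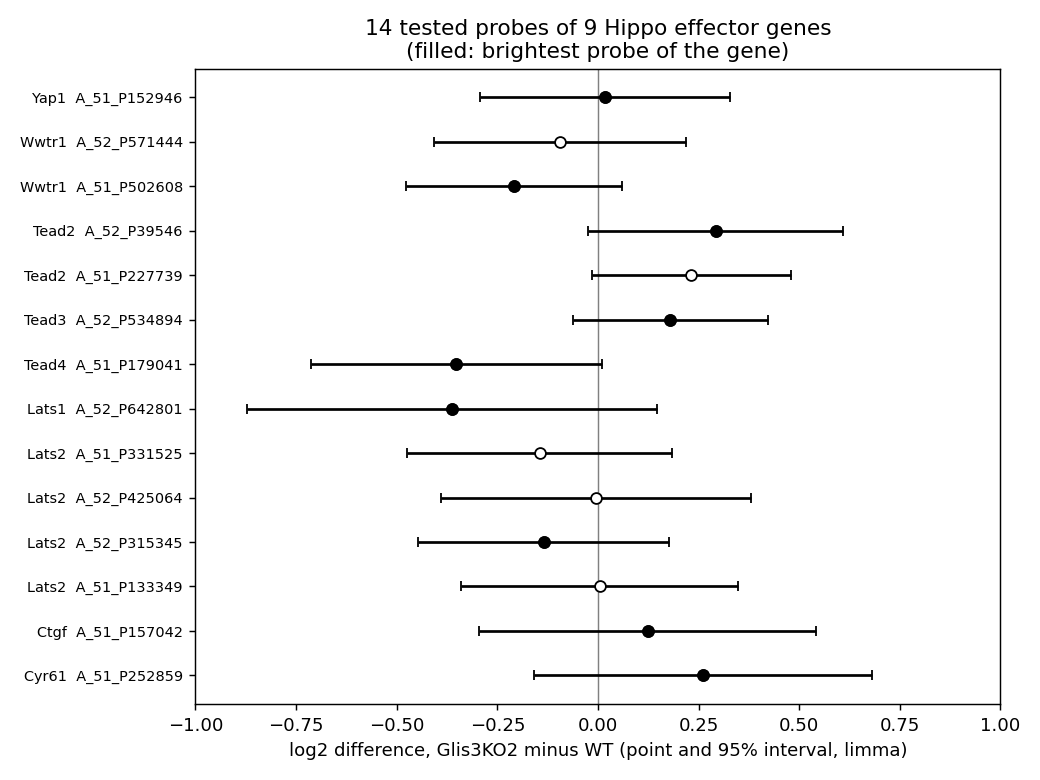
Log2 difference between Glis3KO2 and WT (horizontal axis) for each of the 14 tested probes of 9 genes (vertical axis), with the 95% interval from limma. Filled points are the brightest probe of a gene. Every interval includes 0, the brightest Tead2 probe lies highest (0.29), and Lats1 (-0.36) and Tead4 (-0.35) lie lowest.

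Ctgf and Cyr61 encode secreted matricellular proteins of the CCN family and are the usual readout of YAP and TAZ activity. Ctgf, read at chr10:24349402-24349461, stood at 2.34, 2.40, 1.99 and 2.90 in WT (replicates 1 to 4) and at 2.34, 2.47, 2.61 and 2.70 in Glis3KO2 (same order). WT held both the highest and the lowest value, so that the Glis3KO2 arrays lay inside the WT range. The means were 2.41 ± 0.38 (WT) and 2.53 ± 0.16 (Glis3KO2; SD, n = 4), a difference of 0.12 (SE 0.19, 95% interval -0.30 to 0.54, limma adjusted p = 0.898). The difference was -0.0003 without Glis3KO2 replicates 3 and 4, -0.02 without WT replicate 3, and 0.29 without WT replicate 4.

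Cyr61, read at chr3:145544387-145544446, stood at -0.17, 0.07, 0.12 and 0.69 in WT (replicates 1 to 4) and at 0.47, 0.26, 0.34 and 0.69 in Glis3KO2 (same order). Of the WT arrays 3 lay below all Glis3KO2 arrays, while replicate 4 was level with the highest of them. The means were 0.18 ± 0.36 (WT) and 0.44 ± 0.19 (Glis3KO2; SD, n = 4), a difference of 0.26 (SE 0.19, 95% interval -0.16 to 0.68, limma adjusted p = 0.733). Without WT replicate 4 the Cyr61 difference was 0.43 (adjusted p = 0.586), and without WT replicate 1 it was 0.15.

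WT replicate 4 was thus the highest WT array for both target genes, and it was also the WT array with high Xist. The arrays were also read by Xist, a division noticed after the values were seen. Cyr61 was 0.34 to 0.69 on the 4 arrays with high Xist and -0.17 to 0.26 on the 4 with low Xist. Ctgf was 2.34 to 2.90 and 1.99 to 2.47 on the same arrays, so for Ctgf the 2 sets overlapped. With Xist as a covariate, the genotype differences were 0.03 for Cyr61 and -0.07 for Ctgf, neither past the threshold. Xist was high on more Glis3KO2 arrays than WT arrays, so this covariate cannot fully separate Xist from genotype. WT replicate 4 also had the highest summed signal of 8 endothelial markers, 35.1 in units of the array's 75th percentile. The other WT arrays had 29.8 to 32.7, and the Glis3KO2 arrays had 23.9 to 28.6. For 10 mesenchymal markers the sum was 781 on WT replicate 4, 632 to 717 on the other WT arrays and 709 to 801 on Glis3KO2 arrays. All of these markers were well above background on every array, and 0 of them passed the threshold. For the other genes the same covariate left the Lats1 difference at -0.15, Lats2 at -0.02, Tead3 at 0.11, Tead4 at -0.23 and Yap1 at 0.09. Tead2 stayed at 0.27 and Wwtr1 at -0.16 by their brightest probes. The part of endothelium and mesenchyme in the Ctgf and Cyr61 values was not tested.

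The TEAD recognition sequence is known as GGAATG, or CATTCC on the other strand. RefSeq promoter windows (build GRCm38.p6) were matched for 7 of the 10 genes, and the 250 bases before the start were searched on both strands. Some genes have several windows, 11 in all for these 7. Ctgf, Tead1 and Tead4 had no matched window, so their promoters were not searched. The motif was found in at least 1 window of 4 genes, Yap1, Wwtr1, Tead3 and Cyr61, against 14.4% of all 27025 genes. By window it was in 6 of the 11, against 12.6% of all 32851 windows of that length. Wwtr1 and Tead3 each count with more than 1 window here. Windows of a gene can overlap and share a site, so they are not independent. The letters TGGGGGGT, taken from the site known for Glis proteins, were in 0 of the members' windows on either strand and in 1.36% of all windows. The windows of Yap1, Wwtr1 and Cyr61 are printed because they hold the motif in the coactivators' own promoters and in a target gene, with the motif in capitals, on the minus strand of the genome and ending at the base before the start. The positions are chr9:8004597-8004846, chr3:57575911-57576160 and chr3:145649986-145650235.

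Yap1: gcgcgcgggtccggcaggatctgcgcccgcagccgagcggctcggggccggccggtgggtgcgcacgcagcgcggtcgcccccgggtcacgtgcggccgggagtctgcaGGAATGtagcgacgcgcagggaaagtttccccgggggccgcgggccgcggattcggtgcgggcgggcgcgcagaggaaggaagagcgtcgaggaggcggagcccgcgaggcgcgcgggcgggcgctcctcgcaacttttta
Wwtr1: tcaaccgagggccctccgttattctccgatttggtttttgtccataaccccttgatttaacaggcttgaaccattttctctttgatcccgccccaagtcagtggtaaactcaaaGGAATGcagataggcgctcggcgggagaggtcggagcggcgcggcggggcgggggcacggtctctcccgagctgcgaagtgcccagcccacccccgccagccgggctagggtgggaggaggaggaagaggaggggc
Cyr61: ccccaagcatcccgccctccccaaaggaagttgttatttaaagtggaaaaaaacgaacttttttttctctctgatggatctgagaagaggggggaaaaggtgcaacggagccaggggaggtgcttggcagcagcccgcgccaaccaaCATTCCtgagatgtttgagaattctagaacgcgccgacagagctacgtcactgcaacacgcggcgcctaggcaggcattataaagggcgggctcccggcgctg

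The first motif base lies 141 bases before the start in Yap1, 136 in Wwtr1 and 103 in Cyr61. A match is a description of the letters and not of binding, which an expression array does not read.

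The members shared some of their variation between arrays. Among the Glis3KO2 arrays, replicate 2 was the highest for Yap1, both Wwtr1 probes, Tead4, Lats1 and all 4 Lats2 probes. Replicate 1 was the lowest for Yap1, Lats1 and the brightest Lats2 probe. Tead2, Ctgf and Cyr61 did not follow that order, and their highest Glis3KO2 array, by the brightest probe, was replicate 4. Tead3 did not follow it either, with replicate 1 the highest of its Glis3KO2 arrays. These orders are of 4 arrays and carry no test, and arrays share their scaling and labelling.

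**Figure D3:**
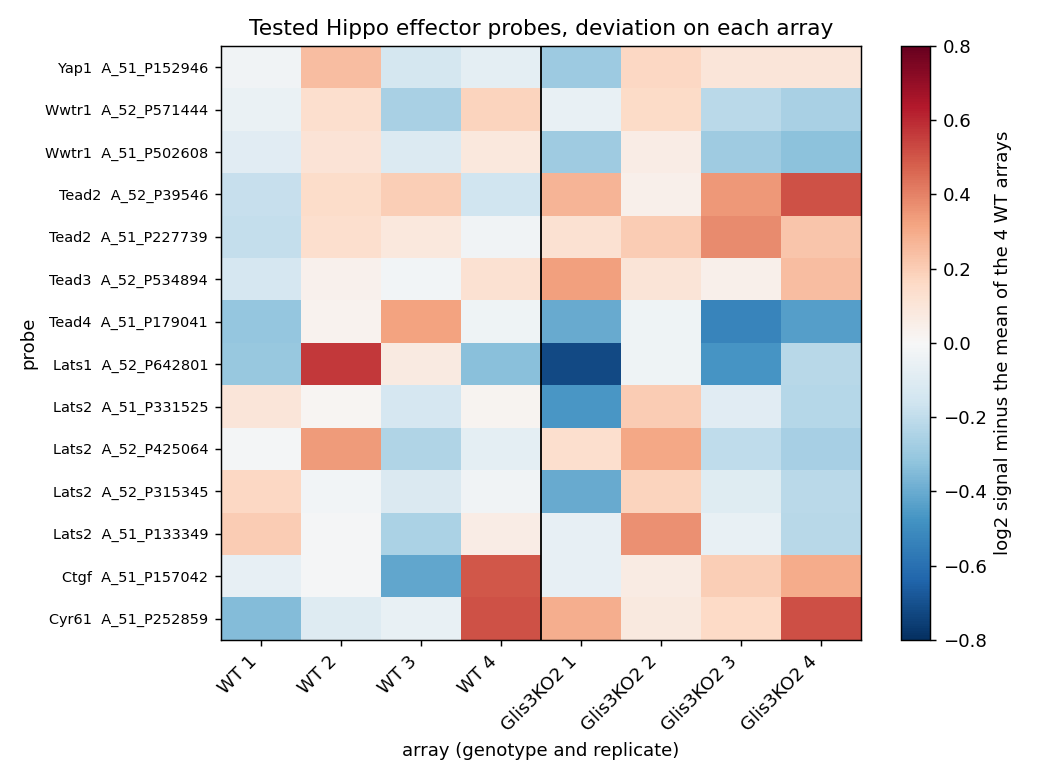
Deviation of each of 14 tested probes (vertical axis) from the mean of the 4 WT arrays, in log2 units by colour, on each array (horizontal axis, genotype and replicate). Glis3KO2 replicate 2 is near or above the WT mean for Yap1, Wwtr1 and Lats2, and WT replicate 4 is above it for Ctgf and Cyr61.

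The genes most like a member over the 8 arrays were sought by the root mean square difference between centred log2 levels, among probes that varied at least 0.8 times as much. For Yap1 they were Nop14 (0.0281), Xpo5 (0.0313) and Bzw2 (0.0477), and for Wwtr1 they were Mboat2 (0.0305), Prkrip1 (0.0459) and Mcam (0.0518). Ctgf was matched less closely, by Rpp25 (0.113), Fndc4 (0.130) and Mylk (0.131), the last a myosin light chain kinase of contractile cells. For Cyr61 the genes were Rpl27a (0.0972), Tnfrsf11b (0.114) and Kdm6a (0.134), and Kdm6a is known as a gene that escapes X inactivation. They were the 3 closest named genes to each member among 14554 to 26491 probes, and none of the 12 genes passed the threshold between genotypes.

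The wider pathway was read from 55 further genes in 5 lists. Of these, 53 had a probe, 52 were tested, and 0 passed the threshold. At an unadjusted p of 0.05 there were 3 (5.77%, against 8.97% of all tested probes), 1 higher and 2 lower in Glis3KO2, and the arrays of the genotypes did not overlap for 4 (against 5.2% of all tested probes). Their median difference was 0.0001.

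The upstream kinase cascade comprised 14 genes, with a median of -0.03 and a range of -0.32 to 0.12. The core genes Stk3, Stk4, Sav1 and Nf2 are given for their place in the cascade and were picked after their values were seen. Stk3 and Stk4, the kinases MST2 and MST1 that act on the Lats kinases, had differences of 0.05 (SE 0.11) and -0.04 (SE 0.13) by their brightest probes. The 3 dimmer Stk4 probes had -0.26, -0.18 (groups that did not overlap) and -0.13, none past the threshold. Their scaffold Sav1 had 0.12 (SE 0.16), and Nf2, the membrane-linked activator merlin, -0.007 (SE 0.15). The lowest p of the list belonged to Taok2 and Taok3, kinases upstream of the MST kinases, and to Wwc1, the scaffold KIBRA. Taok2 had a difference of -0.32 (SE 0.13, limma adjusted p = 0.505), although its dimmer probes had 0.33 and 0.03. Taok3 stood at 2.62 ± 0.04 (WT) and 2.43 ± 0.10 (Glis3KO2; SD, n = 4), with groups that did not overlap and a limma adjusted p = 0.584. Wwc1 had a difference of -0.25 (SE 0.12, limma adjusted p = 0.594).

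The 16 genes of cell junctions and polarity that hold or regulate YAP had a median of 0.04, with 11 positive. Their range was -0.13 to 0.16. The angiomotin Amot, which binds YAP, had a difference of 0.16 (SE 0.11). The FERM protein Frmd6 had -0.12 (SE 0.10), and the atypical cadherin Fat4 0.15 (SE 0.12, limma adjusted p of 0.727 to 0.781 for these genes). Without Glis3KO2 replicate 2 the Fat4 difference was 0.06, and without Glis3KO2 replicate 1 the Frmd6 difference was -0.07.

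The Vgll proteins compete with YAP for TEAD. Vgll4 and Vgll1 had differences of -0.07 (SE 0.16) and -0.03 (SE 0.22), and Vgll2 was dimmer than background limits on all arrays. Of the other CCN genes, Nov had -0.18 (SE 0.12), Wisp2 0.26 (SE 0.37) and Wisp1 -0.0006 (SE 0.16). The Wisp2 difference was 0.02 without WT replicate 2, 0.03 without Glis3KO2 replicate 1, 0.12 without WT replicate 3, 0.55 without WT replicate 4, 0.43 without Glis3KO2 replicate 2 and 0.006 with normexp background. None of the 5 tested genes passed the threshold (limma adjusted p of 0.706 to 1.00).

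Of 19 further genes known to respond to YAP and TAZ, 8 were on average higher and 11 lower in Glis3KO2, with a median of -0.13 and a range of -0.43 to 0.34. Ankrd1, among the best known of them and also picked after its value was seen, had a difference of -0.41 (SE 0.23, limma adjusted p = 0.660). Dock5, an exchange factor for small GTPases, stood at -1.72 ± 0.11 (WT) and -2.15 ± 0.15 (Glis3KO2; SD, n = 4), with groups that did not overlap, and its difference of -0.43 (SE 0.11) had a limma adjusted p = 0.273. Myof, a ferlin of membrane repair, had 0.34 (SE 0.12, limma adjusted p = 0.445), and its dimmer probes had 0.19 and 0.04. Ccdc80, a matrix protein, stood at 4.29 ± 0.17 (WT) and 4.52 ± 0.01 (Glis3KO2; SD, n = 4), also without overlap, with a limma adjusted p = 0.576. None of the 19 passed the threshold, and a p that misses the threshold does not show that the genotypes were alike.

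**Figure D4:**
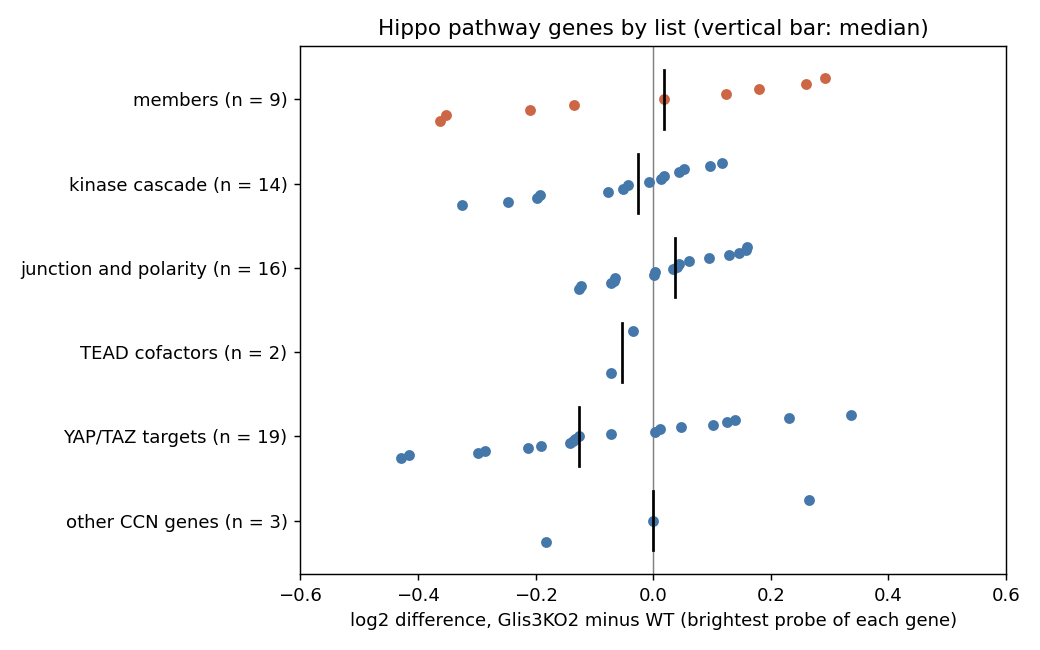
Log2 difference between Glis3KO2 and WT (horizontal axis) for the brightest probe of each tested gene, by list (vertical axis), with a vertical bar at the median. All values lie between -0.43 and 0.34, and none passed the threshold.

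**Figure D5:**
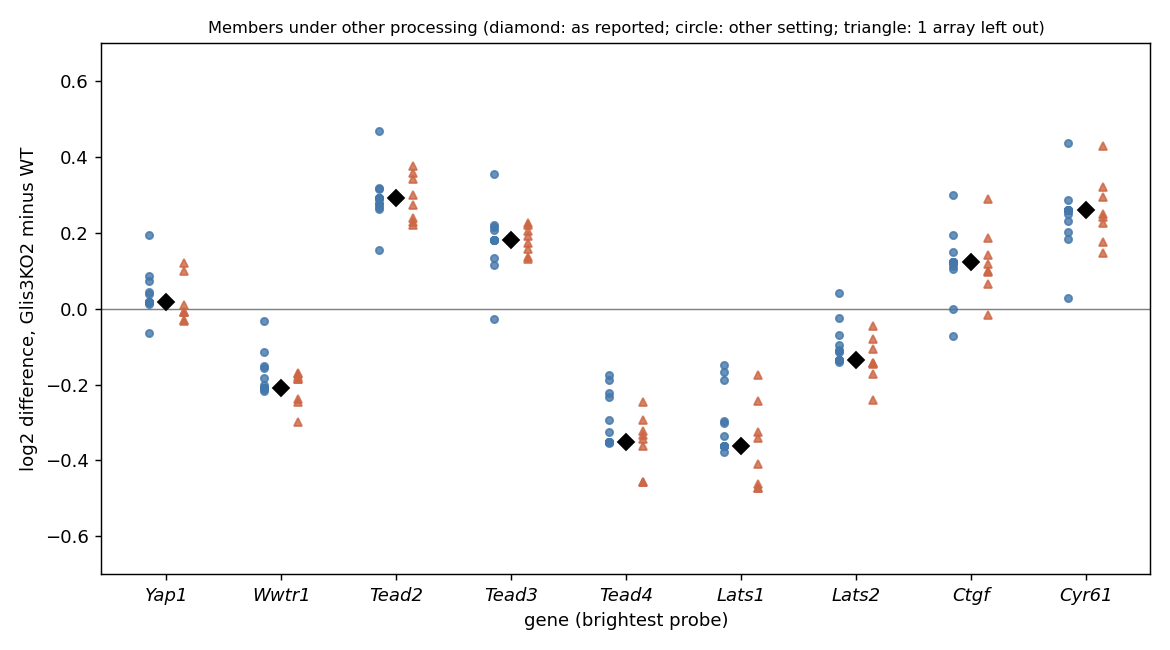
Log2 difference between Glis3KO2 and WT (vertical axis) for the brightest probe of 9 genes (horizontal axis), as reported (diamond), under other processing (circles) and with 1 array left out (triangles). Values on both sides of 0 appear for Yap1, Tead3, Lats2 and Ctgf. Tead2 and Cyr61 stay above 0 throughout, and Wwtr1, Tead4 and Lats1 stay below 0.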

How the data were processed

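RNA from 8 whole pancreases was labelled with Cy3 and hybridised to 1-colour Agilent arrays, per the labels' protocols. The authors used Agilent Feature Extraction 9.5.3.1, per the file headers (9.5 in the submitters' processing notes). The deposited values are spot intensity on a linear scale, background-subtracted and detrended within the array, per the file headers. All 45018 values of every array recurred in the deposited series table. Flags for spots well above background are deposited as 0 or 1 in columns of other kind. Probe positions are on build mm7, per the file headers.

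Levels were log2 of the processed signal less its 75th percentile among the 43379 non-control spots of each array. Outlier spots (56 to 130 per array) were left out, no spot was saturated, and spots of a probe were averaged. A probe was tested if well above background on at least 4 of 8 arrays. Genotype was the sole term in limma 3.58.1 (lmFit, eBayes, 2-sided, R 4.3.3), with Benjamini-Hochberg adjustment over 33239 probes. The fit was also run on simulated data with independent noise. Planted differences there were larger than those of the tested members, so that run does not show how well such small differences are found. The probe with the highest mean level stood for a gene. Probes of older symbols were kept only where accession or chromosome matched.

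The members and the lists were chosen with earlier results of these data known. The lists were the upstream kinase cascade, cell junction and polarity genes, TEAD cofactors, 19 YAP and TAZ targets and other CCN genes, beside marker lists of 10 cell types. Every member probe was named, and from each list the 3 genes with the lowest p unless more passed. For Yap1, Wwtr1, Ctgf and Cyr61 the 3 genes of most like pattern were named, and Glis3 as the targeted gene. Outside that rule, Stk3, Stk4, Sav1, Nf2 and Ankrd1 were picked after their values were seen. Vgll3 and Wisp3 were not analysed here. Same-numbered arrays were not paired (correlations of their deviations were -0.04 to 0.24). Alternatives changed the background, scaling, filter, probe rule, fit, covariates or arrays used, 1 at a time. Python 3.11.15 drew the figures.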

Additional observations from a re-analysis of the deposited data

Results flagged for a closer look

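A single array lay far from the other 3 of its genotype in 3 of 58 groups of 4 arrays checked, and chance alone marks about 1 group in 20. For Yap1, Glis3KO2 replicate 1 had a log2 level of -0.68, with the others at -0.29 to -0.22. For Wwtr1 (probe A_51_P502608), Glis3KO2 replicate 2 stood at 2.30, with the others at 1.92 to 1.96. For Dock5, WT replicate 2 stood at -1.88, with the others at -1.68 to -1.64.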

How the results depend on the processing

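No member and no pathway gene passed the threshold under any alternative run. Leaving aside values that an alternative left identical and the untested Tead1, the members' differences kept their sign in 127 of 138 alternative values and those of the named pathway genes in 193 of 215, and the lowest adjusted p of a tested member was 0.358 (Tead4, limma, without Glis3KO2 replicate 2). Over all tested probes 85 passed. The count was 56 without scaling, 51 with no filter on dim probes, 142 with a trend and robust fit, 27 with Xist as a covariate, 11 without Glis3KO2 replicates 3 and 4, and 35 to 96 with 1 array left out. With the replicate number as a block it was 15. Same-numbered arrays were only weakly correlated (0.129, 0.0893, 0.237 and -0.0375), although 3 of 4 WT arrays correlated best with their own number. Whether the numbers mark pairs of samples was not tested.

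Some small differences turned sign, and the cause was not tested. Without scaling, which puts the median of all probes at 0.17, Lats2 was at 0.0416, Frmd6 at 0.0532, Vgll4 at 0.104, Vgll1 at 0.142 and Wisp1 at 0.175. Tead3 was at -0.0276 with normexp background. Vgll1 was at 0.0118 and Wisp1 at 0.000453 with quantile normalization, Wisp1 at 0.0261 with median scaling, and Vgll4 at 0.0013 with array weights. Ctgf was at -0.0716 and Wisp2 at -0.193 with Xist as a covariate. Without Glis3KO2 replicates 3 and 4, Yap1 was at -0.0626, Ctgf at -0.000305, Vgll1 at 0.321 and Wisp1 at 0.0602. By the mean of its probes Taok2 was at 0.0117. With 1 array left out, the range was -0.0324 to 0.121 for Yap1, -0.0153 to 0.288 for Ctgf, -0.162 to 0.0342 for Vgll4, -0.181 to 0.121 for Vgll1 and -0.093 to 0.115 for Wisp1.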

Other observations

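Marker lists of other cell types were read beside the Hippo genes, each as a summed signal in units of the array's 75th percentile. Such a sum is weighted to its brightest probes, mainly Spp1 in the duct list and Fabp4 in the fat list. The 8 duct markers summed to 119 to 163 on WT arrays and 140 to 175 on Glis3KO2 arrays. Of these, 5 were on average higher in Glis3KO2 and 3 lower. Among the latter, Sox9 had a difference of -0.38 with groups that did not overlap (limma adjusted p = 0.431). The 8 acinar markers summed to 2420 to 2820 on WT arrays and 2090 to 2740 on Glis3KO2 arrays. Past the threshold were 0 of the duct and 0 of the acinar markers. The 8 beta cell markers summed to 721 to 890 in WT and 187 to 388 in Glis3KO2, and 5 of them fell. The 4 other islet hormones summed to 209 to 236 and 123 to 201, and 1 of them, Ppy, fell. Leukocyte markers summed to 4.82 to 7.55 and 5.71 to 6.49, nerve and glia markers to 3.34 to 4.19 and 2.80 to 3.41, fat cell markers to 36.1 to 57.8 and 31.6 to 64.3, and erythroid markers to 98.1 to 135 and 73.6 to 134, with 0 past the threshold in each. The other fat cell markers varied far more between arrays than that list's sum. Over all arrays the log2 level ran from -4.11 to 1.06 for Adipoq, -4.56 to 1.00 for Cfd and -3.50 to 0.31 for Plin1. The part of these cell types in the Hippo values was not tested.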
